A study of Mus musculus with 6 samples.

Results

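Leydig cells are the interstitial cells of the testis that make androgens, and the genes described here carry that work from cholesterol to androgen. The set named 10 mouse genes, ordered along the pathway as Lhcgr, Star, Cyp11a1, Hsd3b1, Hsd3b6, Cyp17a1, Hsd17b3, Srd5a1 and Akr1c14, with the Leydig hormone gene Insl3. A gene was taken where a row of the deposited value table carried its symbol and no other. Of the 10 genes 7 met this rule, each with 1 transcript cluster (a set of probes that together read 1 transcribed region), among 21789 clusters with 1 symbol. The only cluster of Insl3 carried a second symbol as well and was left out, and no named row was found for Lhcgr or Srd5a1, which were not analysed here.

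RNA came from testes of knockout pups and of control pups at postnatal day 15, with 3 arrays of each genotype on an Affymetrix mouse gene array. Everything else about the animals was labelled alike in the groups, and the labels give no strain, allele, Cre driver or number of animals per sample. Separate animals are not stated for the replicates, so the spread behind each p-value is that between these arrays and may be technical only. Values are RMA values on the log2 scale, a difference is knockout minus control, and a fold is knockout over control. The lowest correlation between arrays was 0.997 within a genotype and 0.996 across genotypes, and array medians over the tested clusters lay between 8.52 and 8.55. Whole testes were measured, so fewer Leydig cells and less RNA per Leydig cell cannot be told apart.

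Luteinizing hormone acts on its receptor on Leydig cells and raises cyclic AMP, which activates protein kinase A. STAR then moves cholesterol into the mitochondrion, where CYP11A1 cleaves its side chain to give pregnenolone, with electrons passed on by ferredoxin (FDX1). In the smooth endoplasmic reticulum, HSD3B enzymes make progesterone, CYP17A1 makes androstenedione and HSD17B3 reduces this to testosterone. In the prepubertal mouse testis, fetal Leydig cells are being succeeded by the adult lineage. Hsd3b6 and Hsd17b3 are known as genes of the adult lineage, while Hsd3b1 is used by fetal and adult cells. Immature adult-type Leydig cells are known to turn much of their testosterone into reduced androgens through steroid reductases such as AKR1C14.

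The RefSeq sequences before the starts of 4 of these genes are shown because 3 of them were the members whose knockout and control values did not overlap, and Hsd3b1 is the close relative of one of these. Each runs 5′ to 3′ over the 250 bases before the start, on build GRCm38.p6. Capitals mark the letters AGGTCA, the half-site of nuclear receptors such as NR5A1 and NR4A1, and GATAA, a form of the GATA factor site. Each was searched on both strands, with no overlap between them in these sequences. Other forms around the shorter GATA were not searched, so a window can hold GATA without capitals.
Cyp11a1, chr9:58014702-58014951, plus strand: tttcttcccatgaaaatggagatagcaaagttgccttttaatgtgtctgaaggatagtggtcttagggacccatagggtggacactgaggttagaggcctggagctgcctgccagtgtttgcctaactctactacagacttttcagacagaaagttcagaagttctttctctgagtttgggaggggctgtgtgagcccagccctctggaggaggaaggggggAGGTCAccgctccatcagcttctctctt
Hsd3b6, chr3:98814444-98814693, minus strand: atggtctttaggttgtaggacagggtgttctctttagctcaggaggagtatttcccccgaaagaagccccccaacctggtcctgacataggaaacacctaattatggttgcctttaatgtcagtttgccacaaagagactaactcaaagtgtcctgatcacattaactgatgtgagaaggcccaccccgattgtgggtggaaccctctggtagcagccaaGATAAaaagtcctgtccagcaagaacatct
Hsd3b1, chr3:98859795-98860044, minus strand: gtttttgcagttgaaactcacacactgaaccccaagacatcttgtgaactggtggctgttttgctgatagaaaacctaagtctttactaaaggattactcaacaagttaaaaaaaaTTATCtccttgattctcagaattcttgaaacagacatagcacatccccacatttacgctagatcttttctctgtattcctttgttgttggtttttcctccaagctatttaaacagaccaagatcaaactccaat
Hsd17b3, chr13:64089202-64089451, minus strand: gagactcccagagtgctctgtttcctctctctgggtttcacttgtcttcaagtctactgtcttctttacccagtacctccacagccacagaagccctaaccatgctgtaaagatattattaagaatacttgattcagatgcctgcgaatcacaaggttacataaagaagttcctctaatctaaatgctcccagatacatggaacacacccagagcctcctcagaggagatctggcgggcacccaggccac
Of the 7 measured genes 5 had such a sequence in the RefSeq table, Star and Cyp17a1 being those without one. AGGTCA stood 28 to 23 bases before this start of Cyp11a1 and not in the window of its other listed start. GATAA stood 30 to 26 bases before the start of Hsd3b6 and, as its reverse complement, 134 to 130 bases before that of Hsd3b1 and 14 to 10 bases before that of Akr1c14. The Hsd17b3 window held the shorter GATA but neither AGGTCA nor GATAA. Of 32851 mouse windows of this length, 14% held AGGTCA and 22.6% held GATAA. A match describes the letters in the window and is not evidence of binding.

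Along the pathway, the knockout arrays lay below every control array in Hsd17b3 and above every control array in Cyp11a1 and Hsd3b6, and no steroidogenic gene passed the test across the whole table. In limma, 0 of the 7 genes passed an adjusted p of 0.05, where 3 of 21789 clusters (0.0138%) did. At an unadjusted p under 0.05 there were 3 of 7, against 10.6% of all clusters. Of these 3, Cyp11a1 and Hsd3b6 were higher (background 4.1% of clusters) and Hsd17b3 was lower (background 6.45%). The same 3 genes had groups of values that did not overlap, as did 15.3% of all clusters (6.73% with the knockout higher and 8.6% with it lower). Of the 7 genes 6 had a higher mean in the knockout, as did 11540 of 21789 clusters. The median difference was 0.22 on the log2 scale against 0.0033 over all clusters. These genes also varied more within groups, with a median SD of 0.147 against 0.070 over all clusters. The mean value of the 7 genes was 9.86, 9.91 and 10.03 in knockout arrays and 9.93, 9.71 and 9.63 in control arrays, which overlapped. Genes differ in role here, so the median describes the set and not a shift of every member.

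**Figure D1:**
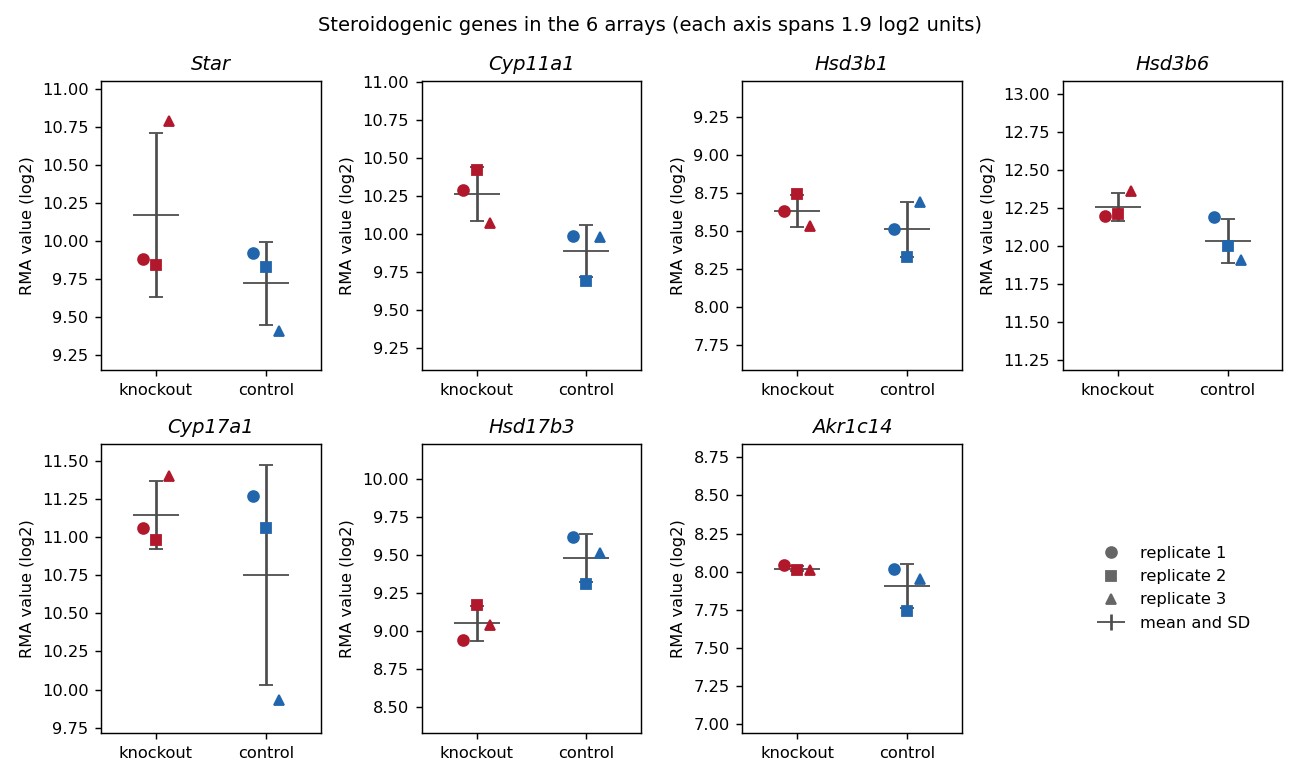
RMA values (log2, vertical axes of equal span) of the 7 measured genes in 3 knockout and 3 control arrays; points are arrays, with a marker for each replicate number, and bars are the mean and SD. Hsd17b3 lies lower and Cyp11a1 and Hsd3b6 lie higher in every knockout array than in any control array, while Star has 1 high knockout array and Cyp17a1 has 1 low control array.

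Some arrays stood apart in ways that touch these genes. Knockout replicate 3 lay at least 0.5 above all 5 other arrays in 13 clusters, and control replicate 3 did so in 33 clusters, against 0 to 8 in the other arrays. Among a list of 20 epididymis genes, put together after the values were seen, 18 were measured. None was listed at 0, which does not show that a gene was expressed. Their mean value was 6.17 to 6.34 in knockout arrays and 6.25, 6.27 and 7.32 in control replicates 1, 2 and 3. Spink8, a protease inhibitor gene of the epididymis, read 5.57, 5.55 and 5.41 in the knockout arrays and 5.38, 5.60 and 9.31 in the control arrays. The part of epididymis RNA in the results was not tested. Leaving out 1 array moved the difference of several genes by over 1.5 times, and such values are given beside the steroidogenic genes.

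Star encodes the protein that brings cholesterol to the inner mitochondrial membrane, the acutely regulated step of steroid synthesis. Its cluster, 10571054 on chromosome 8, read 9.88, 9.84 and 10.79 in knockout replicates 1, 2 and 3 and 9.92, 9.83 and 9.41 in control replicates 1, 2 and 3. Knockout replicate 3 was the highest and control replicate 3 the lowest, while the other 4 arrays spanned 0.09. The means were 10.17 ± 0.54 in knockout and 9.72 ± 0.27 in control (SD, n = 3 each), a difference of 0.45 (95% interval -0.16 to 1.06, adjusted p = 0.588 in limma). Without knockout replicate 3 the difference was 0.14, without control replicate 3 it was 0.295, and without both replicates numbered 3 it was -0.015.

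Cyp11a1 encodes the side-chain cleavage enzyme that commits cholesterol to steroid synthesis. Cluster 10585794 on chromosome 9 read 10.29, 10.42 and 10.07 in knockout arrays and 9.99, 9.69 and 9.98 in control arrays. Each knockout array lay above each control array, with the narrowest gap, of 0.08, between knockout replicate 3 and control replicate 1. The means were 10.26 ± 0.18 and 9.89 ± 0.17 (SD, n = 3 each), a difference of 0.37 (SE 0.11, 95% interval 0.11 to 0.64, 1.30-fold), with an adjusted p of 0.367 in limma. Without both replicates numbered 3 it was 0.52. Of all clusters, 1.32% had a larger difference in size, 3.2% had a smaller p-value in limma and 5.76% had a larger spread within groups.

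The HSD3B enzymes turn pregnenolone into progesterone, and mice use several isoforms. Hsd3b6, the adult Leydig cell isoform, read 12.20, 12.21 and 12.36 in knockout arrays and 12.19, 12.00 and 11.91 in control arrays (cluster 10500559, chromosome 3). Knockout replicate 1 and control replicate 1 were 0.01 apart, so the groups were separate by the smallest step in the file. The means were 12.26 ± 0.090 and 12.03 ± 0.14 (SD, n = 3 each), a difference of 0.22 (SE 0.081, 1.17-fold, adjusted p = 0.412 in limma). It was 0.11 without both replicates numbered 3.

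Hsd3b1, in cluster 10500565 on the same chromosome, read 8.63, 8.74 and 8.53 in knockout arrays and 8.51, 8.33 and 8.69 in control arrays. The groups overlapped, since control replicate 3 lay above 2 of the 3 knockout arrays. Control replicate 2 was the lowest of the 6 arrays. The difference was 0.12 (95% interval -0.10 to 0.35, adjusted p = 0.704 in limma). It was 0.033 without control replicate 2, 0.07 without knockout replicate 2 and 0.21 without control replicate 3. Hsd3b genes have closely related sequences, and the probes of the clusters were not checked for shared signal, so the split between Hsd3b6 and Hsd3b1 is uncertain. Within an array, the log2 value of Hsd3b6 minus that of Hsd3b1 was 3.57, 3.47 and 3.83 in knockout and 3.68, 3.67 and 3.22 in control arrays, with overlapping groups.

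Cyp17a1 encodes the hydroxylase and lyase that opens the way to androgens. Cluster 10468239 on chromosome 19 read 11.06, 10.98 and 11.40 in knockout arrays and 11.27, 11.06 and 9.93 in control arrays. Control replicate 3 lay 1.05 below the lowest of the other arrays, and among all clusters only 1 stood further below the rest in that array. The means were 11.15 ± 0.22 and 10.75 ± 0.72 (SD, n = 3 each), a difference of 0.39 (95% interval -0.37 to 1.16, adjusted p = 0.719 in limma). Without control replicate 3 the difference was -0.018, without control replicate 1 it was 0.65, and without both replicates numbered 3 it was -0.15. Only 0.156% of clusters had a larger spread within groups than Cyp17a1, and 0.349% had a larger one than Star.

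Hsd17b3 encodes the enzyme that makes testosterone from androstenedione, and it was the one measured member with a lower mean in the knockout. Cluster 10410065 on chromosome 13 read 8.94, 9.17 and 9.04 in knockout arrays and 9.62, 9.31 and 9.51 in control arrays. The highest knockout array lay 0.14 below the lowest control array. The means were 9.05 ± 0.12 and 9.48 ± 0.16 (SD, n = 3 each), a difference of -0.43 (SE 0.091, 95% interval -0.64 to -0.22, fold 0.742), with an adjusted p of 0.292 in limma. Of all clusters 0.684% had a smaller p-value in limma, 0.89% had a larger difference in size and 12.1% had a larger spread within groups. The difference was -0.41 without both replicates numbered 3 and between -0.52 and -0.36 in the other settings tried, and it passed the threshold in none of them.

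Because Cyp11a1 and Hsd17b3 stand at the start and near the end of the route to testosterone, their difference within each array was also taken, a choice made after their values were seen and therefore given without a test. The log2 value of Hsd17b3 minus that of Cyp11a1 was -1.35, -1.25 and -1.03 in knockout arrays and -0.37, -0.38 and -0.47 in control arrays. The knockout arrays lay lower by 0.80 on average. The pair was picked for its opposite differences, so the gap between the groups follows from that choice, and neither gene passed the test alone.

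Akr1c14 encodes an aldo-keto reductase that reduces dihydrotestosterone to androstanediol. Cluster 10403291 on chromosome 13 read 8.04, 8.01 and 8.01 in knockout arrays and 8.02, 7.74 and 7.95 in control arrays. Control replicate 1 lay among the knockout arrays, and control replicate 2 was the lowest of the 6. The difference was 0.12 (95% interval -0.055 to 0.29, adjusted p = 0.625 in limma), and 0.035 without control replicate 2.

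**Figure D2:**
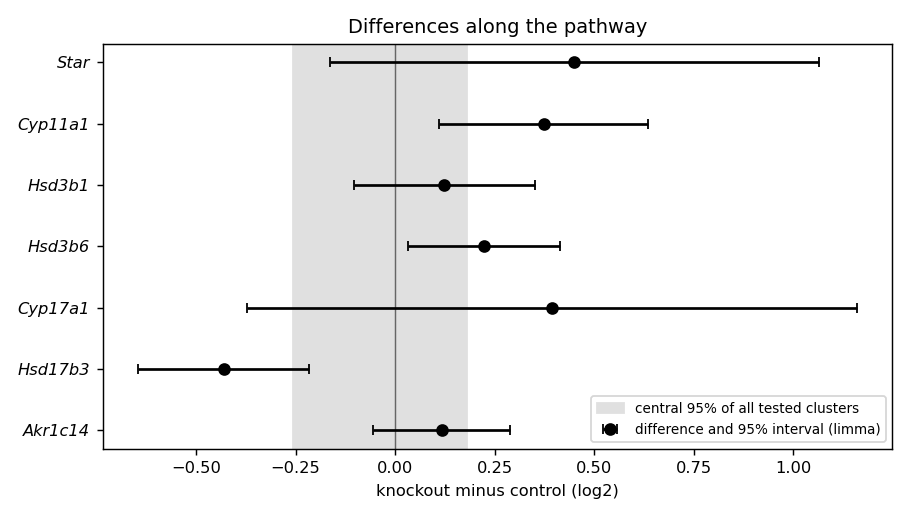
Difference between knockout and control means (log2) with its 95% interval from limma for the 7 measured genes, top to bottom along the pathway; the grey band holds the central 95% of the differences of all tested clusters (-0.26 to 0.18). The intervals of Cyp11a1, Hsd3b6 and Hsd17b3 lie off 0, and those of Star and Cyp17a1 are the widest.

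The high Star value of knockout replicate 3 came with high values of Fdx1 and Nr4a1. Fdx1, the ferredoxin that hands electrons to CYP11A1, read 8.39, 8.35 and 9.39 in knockout arrays and 8.70, 8.55 and 8.43 in control arrays. Its difference was 0.15 with all arrays (adjusted p = 0.884 in limma) and -0.19 without knockout replicate 3. Nr4a1, a nuclear receptor that cyclic AMP induces in Leydig cells and that acts on steroidogenic promoters, read 9.09, 9.12 and 10.90 in knockout arrays and 9.09, 9.11 and 8.99 in control arrays. Its difference was 0.64 with all arrays (adjusted p = 0.667 in limma) and 0.042 without knockout replicate 3. Ranked by how far knockout replicate 3 lay above the highest other array, Nr4a1 was at place 2, Star at place 4 and Fdx1 at place 5 of all clusters, with gaps of 1.78, 0.87 and 0.69. Fdx1 and Nr4a1 were singled out after their values were seen. In the same array Cyp11a1, at 10.07, was the lowest of the knockout arrays. Among the other electron donors, H6pd (9.56) and Cyb5b (11.66) were also lowest of the knockout arrays there, while Cyb5a (11.73) was highest.

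**Figure D3:**
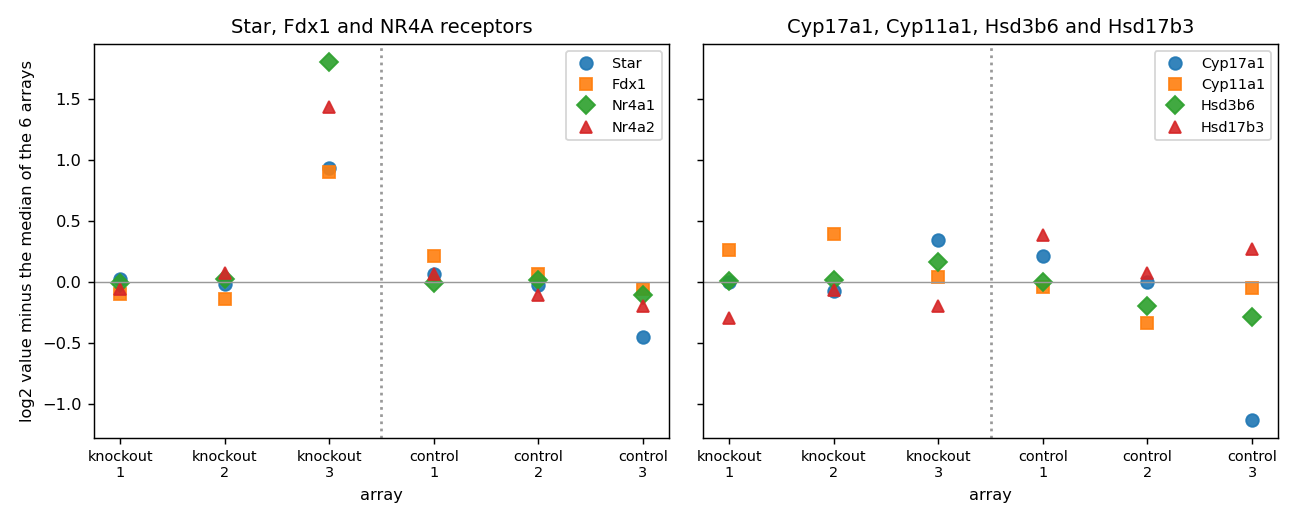
Log2 value minus the median of the 6 arrays, by array, for Star, Fdx1, Nr4a1 and Nr4a2 (left) and for Cyp17a1, Cyp11a1, Hsd3b6 and Hsd17b3 (right); each point is 1 array. The 4 genes on the left are high in knockout replicate 3 alone, and Cyp17a1 is low in control replicate 3 alone.

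The lists of genes around the pathway had medians nearer to 0 than that of the steroidogenic genes. For the list counts below, 4.1% of all clusters were higher and 6.45% lower at an unadjusted p under 0.05 in limma. Of 10 measured genes of LH receptor signalling, 6 were higher and 4 lower in the knockout, with a median of 0.033. Pde8a, a phosphodiesterase that breaks down cyclic AMP in Leydig cells, read 9.79, 9.86 and 9.90 in knockout arrays and 10, 10.14 and 10.13 in control arrays. Its values did not overlap (difference -0.24, SE 0.055), and it did not pass (adjusted p = 0.295 in limma). It was the 1 gene of that list with an unadjusted p under 0.05.

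Genes that deliver cholesterol had a median of -0.0033 over 11 genes, 5 higher and 6 lower, and 0 had an unadjusted p under 0.05. The smallest p-values were those of Acsl4, an acyl-CoA synthetase of steroid-making cells (0.18, adjusted p = 0.475 in limma, and 0.10 without control replicate 2), and Npc1, a cholesterol exporter of lysosomes (-0.093, adjusted p = 0.540). Of the electron donors 4 were measured and 4 had higher means, with a median of 0.065. H6pd, which makes NADPH in the endoplasmic reticulum (0.063), and Cyb5a, the cytochrome that aids the lyase step of CYP17A1 (0.067), had their smallest p-values, and neither passed. Without knockout replicate 3, Cyb5a differed by 0.01 and Fdx1 by -0.19, and without knockout replicate 1 H6pd differed by 0.035.

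Other steroid enzymes had a median of 0.04 over 21 genes, 16 of them higher, 4 lower and 1 with equal means. At an unadjusted p under 0.05 in limma, 3 were higher and 0 lower, against 4.1% and 6.45% of all clusters. Hsd17b1, which reduces estrone and androstenedione in rodents, read 8.04, 7.91 and 7.83 in knockout arrays and 7.77, 7.72 and 7.76 in control arrays, a separate pair of groups (0.18, SE 0.060, adjusted p = 0.389 in limma). Hsd17b12, a related reductase, differed by 0.16 (0.10 without control replicate 2) and Cyp7b1, an oxysterol hydroxylase, by 0.15, and neither passed. Cyp7b1 read 6.63 to 6.94, around or below the lower quartiles of the arrays (6.92 to 6.99). Values of the list ran from 3.70 to 11.44, so some of its genes may not be expressed. Hsd17b1 and Hsd17b3, which catalyse related reductions, thus differed with opposite sign, and the contrast between them was not tested.

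Transcription factors of steroidogenic cells were higher in 11 of 12 genes, with a median of 0.087. Nr5a1, a nuclear receptor required for steroidogenic enzyme genes and made in Leydig and Sertoli cells, read 9.95, 9.94 and 9.92 in knockout arrays and 9.77, 9.74 and 9.76 in control arrays. The groups did not overlap (0.18, SE 0.038, 1.13-fold), and the gene did not pass (adjusted p = 0.291 in limma). Its relative Nr5a2, which binds the same sites, read 7.77, 7.90 and 7.78 in knockout arrays and 7.60, 7.48 and 7.64 in control arrays (0.24, SE 0.060, adjusted p = 0.320). These were the 2 genes of the list with an unadjusted p under 0.05.

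Signals and receptors of the Leydig lineage had a median of 0.033 over 15 genes, 10 higher and 5 lower. Inhba, a subunit of activins, was the 1 gene with an unadjusted p under 0.05 (0.13, adjusted p = 0.451 in limma, and 0.08 without control replicate 2). Of 9 genes listed as androgen-dependent in Sertoli cells 8 were measured, and Rhox5 was not. Their median was 0.03, with 5 higher and 3 lower, 0 at an unadjusted p under 0.05 in limma and 0 past the adjusted threshold. Wt1 (0.07) and Eppin, an androgen-responsive protease inhibitor gene (-0.083), had the smallest p-values of that list. Wt1 is also counted among the transcription factors and the Sertoli markers, so it is not particular to androgen response.

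**Figure D4:**
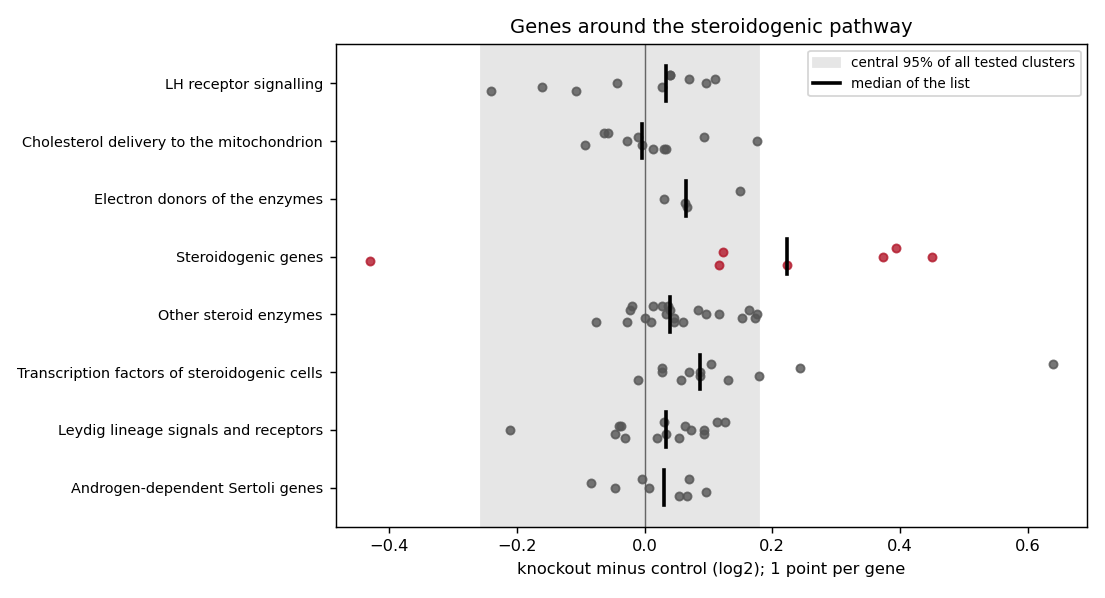
Difference between knockout and control means (log2), 1 point per gene, for the steroidogenic genes (red) and 7 lists of genes around the pathway; black bars are list medians and the grey band holds the central 95% of all tested clusters. The steroidogenic genes run from -0.43 (Hsd17b3) to 0.45 (Star), and the point at 0.64 among the transcription factors is Nr4a1.

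No marker of the adult or fetal Leydig cell lists had groups of values that did not overlap. Of 6 measured adult markers outside the pathway 5 were higher and 1 lower, with a median of 0.065. Vcam1, an adhesion molecule of the adult lineage, read 10.69, 10.56 and 10.57 in knockout arrays and 10.29, 10.11 and 10.60 in control arrays, so that control replicate 3 lay among the knockout arrays (0.27, adjusted p = 0.474 in limma, and 0.16 without control replicate 2). Ptgds, a prostaglandin synthase, differed by -0.14, and by -0.063 without control replicate 3. Of 5 measured fetal markers 3 were higher and 2 lower, with a median of 0.037 and the smallest p-values for Cited1 (0.05) and Mc2r (-0.037). In either list 0 genes had an unadjusted p under 0.05 in limma and 0 passed. The adrenal cortex shares part of this pathway. Of its 5 listed markers 4 were measured, 3 of them higher and 1 lower, with a median of 0.038 and the smallest p-values for Cyp11b2, the aldosterone synthase (0.06), and Mc2r, the corticotropin receptor. In that list 0 genes had an unadjusted p under 0.05 in limma and 0 passed. Its values ran from 5 to 7.03, around or below the lower quartiles of the arrays (6.92 to 6.99), so these genes may not be expressed. Mc2r, also counted among the fetal markers, read 5 to 5.12.

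Markers of other cells of the testis are given because whole testes were measured, and their part in the results above was not tested. Over all clusters, 6.45% were lower and 4.1% higher at an unadjusted p under 0.05 in limma. Of 11 germ cell markers 9 were lower and 2 higher in the knockout, and 5 were lower and 1 higher at that p. Their mean value was 10.92 to 11.09 in knockout arrays and 11.04 to 11.21 in control arrays, which overlapped. The smallest p-values included those of Gfra1, a GDNF receptor of undifferentiated spermatogonia (0.39), Piwil2 (-0.18) and Ddx4 (-0.20), whose groups were separate. The others were those of Ldhc (-0.75) and Piwil1 (-0.67), genes of spermatocytes, whose groups overlapped. Zbtb16 also had an unadjusted p under 0.05 in limma, with separate groups and the sign opposite to that of Gfra1 (-0.18). Of 9 macrophage markers 9 had higher means, with list means of 9.03 to 9.09 in knockout arrays and 8.88 to 9.01 in control arrays, which did not overlap, and 3 had an unadjusted p under 0.05. These were the fractalkine receptor gene Cx3cr1 (0.16) and the complement genes C1qc (0.16) and C1qb (0.15). Of 10 Sertoli markers 8 were higher and 2 lower, with list means of 11.00 to 11.04 in knockout and 10.92 to 10.99 in control arrays, which did not overlap, and at an unadjusted p under 0.05 there were 1 higher and 0 lower. This was Kitl, the ligand of KIT on germ cells and Leydig cells, which read 10.79, 10.76 and 10.74 in knockout arrays and 10.51, 10.44 and 10.49 in control arrays. Its groups did not overlap (0.28, SE 0.041), and it did not pass (adjusted p = 0.235 in limma). Peritubular myoid markers (6, median -0.017) and endothelial markers (6, median -0.018) had groups that overlapped, with the smallest p-values for Des (0.15) and Tagln (-0.15) and for Egfl7 (-0.067) and Kdr (-0.13). No marker of these 5 lists passed the adjusted threshold. None was listed at 0, which does not show that a marker was expressed, since detection calls were not used.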

How the data were processed

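Per the submitters' processing notes, the authors made the deposited log2 values with RMA in Affymetrix Expression Console, which corrects background, gives all arrays 1 distribution and summarises the probes of each transcript cluster. Versions, probe annotation and the build were not given in the sources used here. A shift common to every transcript is invisible after this step. Scanner files and detection calls were not used. The platform annotation paired 21789 of 35556 rows with 1 symbol and 1621 with several, and left 12146 unnamed. Symbols were updated by gene identifier to the GRCm38.p6 gene table (21698 matched), which also gave chromosomes.

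Knockout was compared with control (3 arrays each) in limma 3.58.1 in R 4.3.3 (lmFit and eBayes, no covariates, 4 residual and 3.24 prior degrees of freedom) over the 21789 clusters, with Benjamini-Hochberg adjustment and a threshold of 0.05. The procedure was tested on simulated data. These had independent noise in each cluster and array, so arrays that stand apart in many genes were not covered. In lists, the cluster with the highest mean stood for a gene that had several. The rule named all members and, from each list, up to 5 genes with an unadjusted p under 0.05 or else the 2 smallest. The members and lists were chosen with earlier results of these data known, so no list was tested or adjusted alone. The alternatives were a replicate block, another prior, all rows, bright clusters alone, 2 other scalings, array weights and leaving out each array, with 1 added after the data were seen, without both replicates numbered 3. The number of arrays limits the precision. The targeted gene is not reported here.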

Additional observations from a re-analysis of the deposited data

How the results depend on the processing

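No steroidogenic gene passed the adjusted threshold under any of the 13 other settings listed in the methods or the 1 added after the data were seen. The number at an unadjusted p under 0.05 was 3 in every setting that kept all arrays and without both replicates numbered 3, and between 2 and 4 when single arrays were left out. The median of the members ranged from 0.16 to 0.30 when single arrays were left out and was 0.11 without both replicates numbered 3. The adjusted p of Hsd17b3 ranged from 0.116 to 0.646, that of Cyp11a1 from 0.194 to 0.685 and that of Hsd3b6 from 0.189 to 0.701. When single arrays were left out, the difference of Cyp17a1 ranged from -0.018 (without control replicate 3) to 0.65 and that of Fdx1 from -0.19 (without knockout replicate 3) to 0.33. Without both replicates numbered 3, Cyp17a1 differed by -0.15, Star by -0.015, Fdx1 by -0.26 and the endothelial gene Kdr by 0.03 (-0.13 with all arrays). These were the 6 changes of sign among 591 single-gene values recomputed. The next counts cover only the steroidogenic genes and the genes named from the lists. Leaving out control replicate 2 or control replicate 3 moved the difference of 11 genes each by over 1.5 times. Leaving out knockout replicate 3 did so for 9, knockout replicate 2 for 7, control replicate 1 for 5 and knockout replicate 1 for 3. Some of these differences were small with all arrays, such as that of Mc2r (-0.037). Of all clusters, 3 passed the threshold. With replicate numbers fitted as a block, with every row tested or without both replicates numbered 3 the count was 0. It was 7 with an intensity trend and robust prior, and 0 to 52 when single arrays were left out (52 without control replicate 1, 1 without control replicate 2 and 0 without any other). The deviations of same-numbered arrays correlated at 0.17, -0.054 and 0.17, and those of differently numbered arrays at -0.23 to 0.084. Whether same-numbered arrays share more than a number was not tested. The block changed no call of a steroidogenic gene. Dim clusters are compressed by RMA, and Akr1c14 was below the brightness limit of the setting with bright clusters alone. The cause of these changes was not tested.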

Other observations

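The clusters that set knockout replicate 3 apart were led by Serpina3a (1.87 above the highest other array), a member of a family with near-identical copies, then Nr4a1, and then Nr4a2, a relative of Nr4a1 (1.36). Nr4a2 read 7.93, 8.06 and 9.42 in knockout arrays and 8.05, 7.88 and 7.79 in control arrays. Ptgs2, which encodes an inducible prostaglandin synthase, lay 0.53 above the others in the same array. Of 12 genes that cyclic AMP or other stimuli induce early, a list put together after the values were seen, the mean was 8.26, 8.27 and 8.72 in knockout arrays and 8.22, 8.15 and 8.19 in control arrays. In that array Ier3 (8.36), Egr1 (9.32) and Fosl2 (9.52) were also the highest of the 6, whereas Fos (7.62) was the lowest of the knockout arrays and Jun (9.68) lay below the other knockout arrays.

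In control replicate 3, Plbd1, which encodes a phospholipase B-like protein, stood furthest below the other arrays (1.07), followed by Cyp17a1 (1.05), and Star was at place 7 (0.42). Among all tested clusters, 33 lay at least 0.5 above the other arrays in control replicate 3. The epididymis list was put together after the values were seen, so counts from it can follow from that choice and were not tested. Of its 18 measured genes, 13 were highest in control replicate 3, 10 of them by at least 0.5. These were led by Spink8 (3.71 above the highest other array), Serpina1f (2.13) and Cuzd1 (1.80). The other 5 were not highest there, among them Lcn8, which read 6.31, 6.04 and 6.27 in knockout arrays and 6.20, 6.06 and 6.18 in control arrays.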
